A study of Mus musculus with 10 samples.

Results

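The Il10 locus was taken as the part of mouse chromosome 1 from 39.8 kb upstream of the Il10 gene to 20 kb past its end, a window of 65 kb in the GRCm38 assembly. Every peak of the deposited ATAC-seq table that overlapped this window was a member, which gave 12 of 97385 peaks. ATAC-seq marks open chromatin by the sites at which the Tn5 transposase can cut. The libraries were made from regulatory T cells (Tregs) of C57BL/6 mice at 10 days of age, sorted as CD4+Foxp3-YFP+TCRb+ from lung and from spleen. Vps34-deficient mice were Foxp3Cre Pik3c3 fl/fl, in which a Cre recombinase expressed with YFP from the Foxp3 gene removes Pik3c3, the gene of the lipid kinase Vps34, in Tregs. Control mice also carried Foxp3Cre and were Pik3c3+/+ or Pik3c3+/fl, so the Cre and the YFP reporter were shared by all groups. The labels place 2 control and 4 Vps34-deficient libraries in spleen, and 2 of each genotype in lung. For spleen the methods of the study state the reverse, and here the labels, which match the column names, define the groups. The labels do not say how many mice stand behind the libraries of a group. Peaks on chromosome Y read 7.03 to 21.4 CPM (counts scaled to the same library total) in 5 libraries and 56.9 to 67.6 CPM in the other 5, with both levels in every group, so no group consisted only of repeats of 1 mouse. P-values measure the spread between these libraries.

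Il10 encodes interleukin-10, a cytokine that dampens the activation of antigen-presenting cells and effector T cells. Effector Tregs are a main source of it at barrier tissues such as the lung and gut, and it acts through the receptor chains Il10ra and Il10rb and the transcription factor Stat3. The gene is flanked by noncoding sequences that open when T cells acquire the capacity to express it, and transcription factors of the AP-1, IRF, NF-kB, NFAT and MAF families are known to bind there. It lies in a cytokine cluster with Il19, Il20 and Il24.

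Il10 is on the plus strand (chr1:131019845-131024974) and has 5 exons. The peaks are named here by the distance of their centre from the start of the gene. No peak of the table covered the start itself, and the nearest were at -9.1 kb and +1.8 kb. Of the 12 peaks, 8 were intergenic and upstream, from -32.2 kb (chr1:130987440-130987859) to -9.1 kb (chr1:131010466-131010960). The +1.8 kb peak (chr1:131021475-131021855) began in the last 7 bases of exon 3 and otherwise lay in intron 3. The +2.9 kb peak (chr1:131022526-131023037) began in the last 29 bases of exon 4 and otherwise lay in intron 4. The +6.2 kb (chr1:131025912-131026239) and +18.8 kb peaks (chr1:131038012-131039209) were downstream of the gene. For each peak the central 300 bases were read from the GRCm38 RefSeq genome. The letters TGANTCA, the binding motif of AP-1 (dimers of JUN, FOS and BATF proteins), occurred in 6 of the 12 windows and in 13.0% of 97250 windows of all peaks, counting both strands. A motif of NF-kB, searched as GGG, 2 free bases, TT, 1 free base and CC, was in 2 windows and in 6.06% of all. A composite of AP-1 with an IRF core site, in which 4 bases separate the GAAA and TGANTCA letters, was in 1 window, that of the -9.1 kb peak, and in 0.275% of all. The other composite searched, with GAAA directly beside TGANTCA, was in none of the 12 windows and in 0.334% of all. These matches describe letters only and do not show binding.

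The sequences of 6 windows follow, each on the plus strand. They belong to the -16.5 kb (chr1:131003240-131003539) and +1.8 kb peaks (chr1:131021516-131021815), which had the smallest p-values in spleen, the -19.2 kb peak (chr1:131000448-131000747), which had the lowest fold change in lung, the -25.9 kb peak (chr1:130993753-130994052), which had the highest level, the -9.1 kb peak (chr1:131010564-131010863) with the composite, and the -13.6 kb peak (chr1:131006120-131006419), which passed the test for genotype in neither tissue. Capitals mark AP-1, NF-kB and composite matches.
Il10 -25.9 kb: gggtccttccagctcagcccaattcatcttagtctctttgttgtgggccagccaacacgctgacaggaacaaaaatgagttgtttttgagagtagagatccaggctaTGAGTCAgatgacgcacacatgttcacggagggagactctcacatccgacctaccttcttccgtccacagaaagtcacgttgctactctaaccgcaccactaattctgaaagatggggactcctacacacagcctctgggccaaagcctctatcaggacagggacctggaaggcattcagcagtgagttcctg
Il10 -19.2 kb: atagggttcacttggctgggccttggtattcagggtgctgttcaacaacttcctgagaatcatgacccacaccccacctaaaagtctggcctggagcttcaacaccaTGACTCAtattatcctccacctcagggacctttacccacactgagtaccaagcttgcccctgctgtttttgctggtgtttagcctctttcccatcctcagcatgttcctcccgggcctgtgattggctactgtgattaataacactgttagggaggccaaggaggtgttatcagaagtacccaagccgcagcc
Il10 -16.5 kb: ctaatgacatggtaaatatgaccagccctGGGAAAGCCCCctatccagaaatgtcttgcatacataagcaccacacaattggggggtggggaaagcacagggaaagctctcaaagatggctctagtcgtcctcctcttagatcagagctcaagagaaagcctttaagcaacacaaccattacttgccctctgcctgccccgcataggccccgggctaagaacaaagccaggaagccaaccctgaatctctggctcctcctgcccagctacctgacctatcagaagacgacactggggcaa
Il10 -13.6 kb: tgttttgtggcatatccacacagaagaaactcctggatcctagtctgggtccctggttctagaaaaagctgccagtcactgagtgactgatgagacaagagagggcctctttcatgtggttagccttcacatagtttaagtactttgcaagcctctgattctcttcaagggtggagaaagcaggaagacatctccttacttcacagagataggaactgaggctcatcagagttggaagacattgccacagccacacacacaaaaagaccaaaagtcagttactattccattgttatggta
Il10 -9.1 kb: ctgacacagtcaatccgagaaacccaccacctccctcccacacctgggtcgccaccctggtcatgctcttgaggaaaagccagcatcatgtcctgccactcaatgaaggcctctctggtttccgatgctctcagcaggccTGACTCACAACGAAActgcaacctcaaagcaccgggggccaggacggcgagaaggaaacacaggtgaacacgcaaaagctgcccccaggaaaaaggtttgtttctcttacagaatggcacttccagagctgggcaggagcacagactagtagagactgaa
Il10 +1.8 kb: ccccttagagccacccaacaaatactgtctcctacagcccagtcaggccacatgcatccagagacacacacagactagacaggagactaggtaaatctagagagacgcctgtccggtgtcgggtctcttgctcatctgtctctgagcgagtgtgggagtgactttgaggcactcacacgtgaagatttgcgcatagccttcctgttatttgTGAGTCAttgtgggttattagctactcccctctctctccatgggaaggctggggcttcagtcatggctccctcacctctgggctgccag

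The -25.9, -23.3, -19.2, -9.1, +1.8 and +6.2 kb windows each held 1 AP-1 match. In the -16.5 kb and -20.1 kb windows the NF-kB letters matched 2 times on the minus strand, offset by 1 base, which leaves a run of 11 capitals in the -16.5 kb sequence above. The -9.1 kb window also held 2 matches to the NFAT core GGAAAA (21.9% of all windows), and it shared the MAF core TGCTGA (23.3%) with the -25.9 and -19.2 kb windows. The E-box CACGTG, a motif of bHLH factors such as Bhlhe40, was in the +1.8 and +6.2 kb windows (6.08% of all). A RUNX core (TGTGGT, 26.5%) was in 4 windows, the TCF1-LEF1 letters CTTTGA (21.6%) in 5 and the ETS letters GGAAGT (26.9%) in 3. The -13.6 kb window held a RUNX core and none of the AP-1, NF-kB, NFAT, MAF, ETS or TCF1-LEF1 letters. The GATA letters AGATAA (15.1%) and the forkhead letters TGTTTAC (4.34%) were in none of the 12 windows.

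The libraries held between 9405823 and 22439699 counts in peaks, and the smallest count of a member in any library was 26. Values are CPM. The table checks the cell label only in part: all 7 Treg and T cell marker genes (Foxp3, Il2ra, Ctla4, Ikzf2, Cd4, Cd3e and Cd3d) had promoter peaks, with a sum of 258 to 338 CPM per library. Ms4a1 and Cd79a of B cells, Csf1r, Lyz2, Cd68 and Fcgr3 of myeloid cells, Ncr1 and Klrb1c of NK cells, Sftpc of lung epithelium and Tek of endothelium had none. Other genes of these lists had promoter peaks, among them Pax5 (13.2 to 19.1 CPM over the libraries), Epcam (16.8 to 24.8 CPM) and Pecam1 (24.0 to 29.7 CPM). The summed promoter signal was 16.8 to 22.7 CPM for the B cell list (2 of 5 genes with a peak), 25.1 to 35.5 CPM for the epithelial list (3 of 4) and 28.8 to 37.3 CPM for the endothelial list (3 of 4). The promoter peak of the targeted gene Pik3c3 read 60.7 to 62.0 CPM in spleen control, 63.5 to 67.3 in spleen Vps34-deficient, 52.5 to 57.0 in lung control and 55.1 to 61.8 CPM in lung Vps34-deficient libraries, and none of its 4 peaks was called for genotype. A promoter peak cannot show a deletion within the gene, so it does not check the labels. Lung control library 2 read higher than library 1 at all 12 peaks of the Il10 window (window sums of 340 and 227 CPM), and the calls that are lost without it are named beside each comparison.

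Over the whole window, control Tregs of the lung had the most open Il10 locus. The 12 peaks summed to 283 ± 79.8 CPM in lung control (SD, n = 2), 174 ± 15.2 in spleen control (SD, n = 2), 110 ± 5.38 in lung Vps34-deficient (SD, n = 2) and 103 ± 4.79 in spleen Vps34-deficient libraries (SD, n = 4). The lung control libraries (227 and 340 CPM) lay above the spleen control libraries (163 and 184 CPM), and both lay above all Vps34-deficient libraries. The 2 Vps34-deficient groups overlapped, at 106 and 113 CPM in lung and 105, 104, 96.7 and 108 CPM in spleen. The mean sum was 1.68-fold lower without Vps34 in spleen and 2.58-fold lower in lung. Fewer cells with an open locus and less accessibility per cell cannot be told apart in these bulk libraries.

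**Figure D1:**
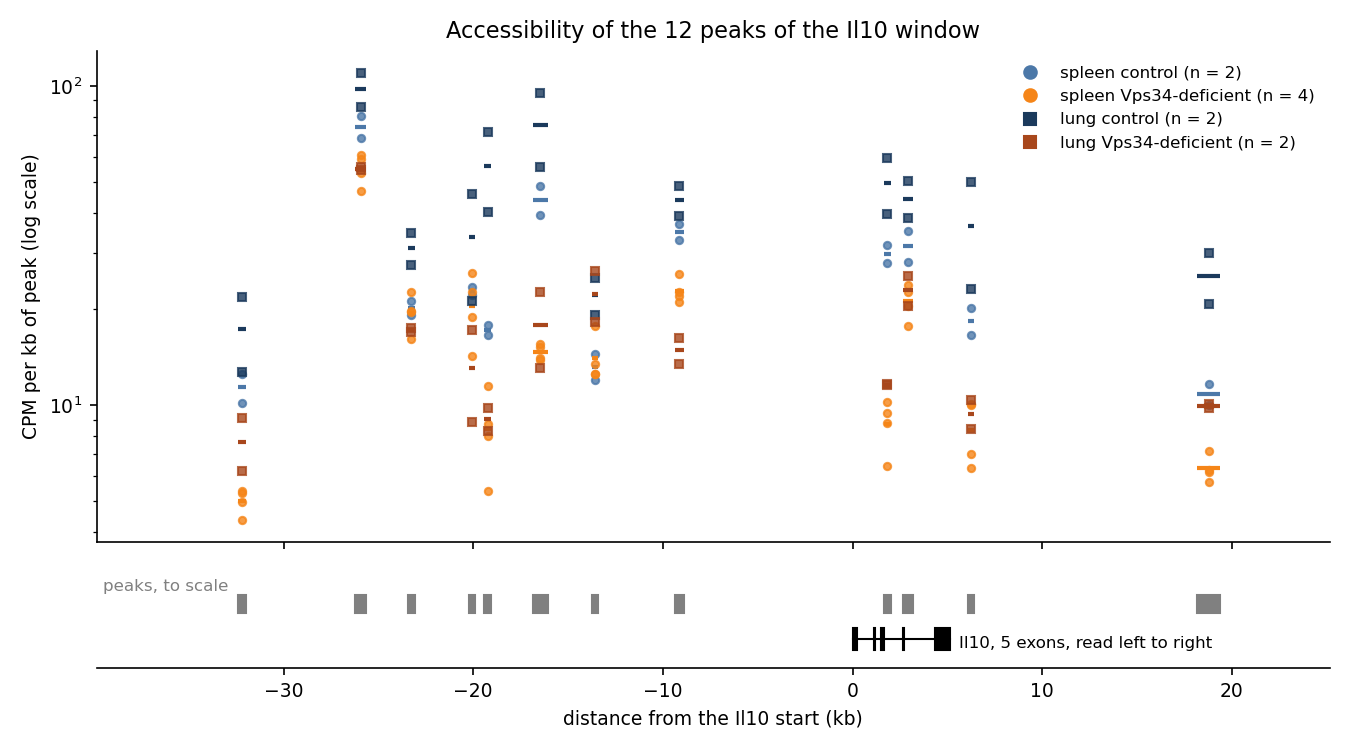
Accessibility per kb of peak (CPM per kb, log scale) of the 12 peaks against distance from the Il10 start in kb. Points are libraries, short bars are group means over the width of the peak, and the lower panel draws peaks and Il10 exons to scale. The -25.9 kb peak is the highest in every group, and both dark blue lung control values lie above all other libraries at each peak except -20.1 and -13.6 kb.

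Levels were compared between peaks per kb of width. The -25.9 kb peak was the highest in all 4 groups, at 74.6 CPM per kb in spleen control and 97.9 in lung control, above 96.0% and 97.6% of all peaks of the table. In control Tregs the -16.5 kb peak came next, at 43.9 CPM per kb in spleen and 75.4 in lung (above 90.3% and 95.9% of all peaks). In Vps34-deficient Tregs it read 14.7 CPM per kb in spleen and 17.8 in lung (above 66.0% and 70.6%). The -32.2 kb peak was among the lowest, from 5.0 CPM per kb in spleen Vps34-deficient to 17.2 in lung control.

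In the spleen, chromatin of the Il10 locus was less accessible in Vps34-deficient Tregs than in control Tregs. A peak was called when the adjusted p of edgeR's quasi-likelihood test (Benjamini-Hochberg over 97109 peaks) was below 0.05 and the absolute log2 fold change was above 0.5. By this rule 6 of the 12 peaks fell and none rose, while 1.02% of all peaks tested fell. DESeq2 called 7 lower, the same 6 and -9.1 kb, and none higher. The median log2 fold change was -0.69 for the 12 peaks and 0.05 for all peaks. At 9 of the 12 peaks every Vps34-deficient library was below both control libraries, which held for 11.1% of all peaks. Without spleen control 1 or without spleen control 2, only the -16.5 and +1.8 kb peaks were still called. In the same libraries the summed promoter signal of the B cell list was 16.8 to 17.1 CPM in spleen control and 18.2 to 22.5 CPM in spleen Vps34-deficient, and that of the epithelial list was 34.1 to 35.5 and 28.3 to 32.4 CPM. Neither list overlapped between the genotypes in spleen, while the Treg and T cell, CD8 and NK cell, myeloid and endothelial lists did. Among single peaks, all spleen Vps34-deficient libraries were above both controls at 14551 of 97385, and below them at 10830. The part of the lists in the Il10 result was not tested. In lung the ranges of the B cell and epithelial lists overlapped.

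The upstream peak at -16.5 kb (chr1:131002986-131003793) had the smallest p in spleen. It read 31.7 and 39.3 CPM in the control libraries and 12.5, 11.4, 12.3 and 11.2 CPM in the Vps34-deficient libraries, with no overlap. The log2 fold change was -1.58 (SE 0.177, adjusted p = 1.31e-05), a drop of 2.99-fold, and its p ranked 34 among all peaks tested. The intronic peak at +1.8 kb read 10.6 and 12.1 CPM in control and 3.34, 2.45, 3.88 and 3.59 CPM in Vps34-deficient libraries. It had the largest fold change of the 12 peaks in spleen, at -1.77 (SE 0.211, adjusted p = 2.82e-05), or 3.40-fold lower, and ranked 48. At both peaks the gap between the genotypes was larger than the spread within either group.

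The other 4 peaks called in spleen had smaller changes. The -32.2 kb peak read 5.26 and 4.27 CPM in control and 2.09, 1.83, 2.26 and 2.23 CPM in Vps34-deficient libraries, with a log2 fold change of -1.18 (SE 0.273, adjusted p = 0.0253). The +6.2 kb peak fell from 6.60 and 5.44 CPM to 3.27, 3.30, 2.08 and 2.30 CPM (log2 fold change -1.15, SE 0.280, adjusted p = 0.0362). For both, each Vps34-deficient library was below each control library. The -19.2 kb peak (chr1:131000392-131000802), with its AP-1 match, read 7.31 and 6.82 CPM against 4.73, 2.20, 3.29 and 3.59 CPM (log2 fold change -1.04, SE 0.253, adjusted p = 0.0346). At +18.8 kb, 11.9 and 13.9 CPM in control stood against 7.37, 6.85, 7.49 and 8.61 CPM (log2 fold change -0.77, SE 0.174, adjusted p = 0.0224). The 2 groups did not overlap at either peak, but these 4 calls were the ones lost when a spleen control library was left out. All 4 were also lost with the replicate number as a block. Without spleen Vps34-deficient 2 the -32.2, -19.2 and +18.8 kb calls were lost, and without spleen Vps34-deficient 4 the -32.2, -19.2 and +6.2 kb calls. The +6.2 kb call was also lost without spleen Vps34-deficient 3.

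Of the 6 peaks that did not pass in spleen, 3 still had no overlap between groups. The -25.9 kb peak read 40.3 and 47.4 CPM in control and 27.5, 35.6, 31.4 and 34.7 CPM in Vps34-deficient libraries (log2 fold change -0.44, adjusted p = 0.0690). The -9.1 kb peak, which carries the AP-1 composite, read 16.2 and 18.3 CPM against 10.8, 12.7, 10.4 and 11.2 CPM (-0.61, adjusted p = 0.0574), and it was called under 11 of 22 alternative settings. The intronic +2.9 kb peak read 14.4 and 17.9 CPM against 11.5, 10.5, 9.03 and 12.2 CPM (-0.58, adjusted p = 0.0999). In contrast, the groups overlapped at -23.3, -20.1 and -13.6 kb, with log2 fold changes of -0.05 (SE 0.201), -0.16 (SE 0.281) and 0.08 (SE 0.243).

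**Figure D2:**
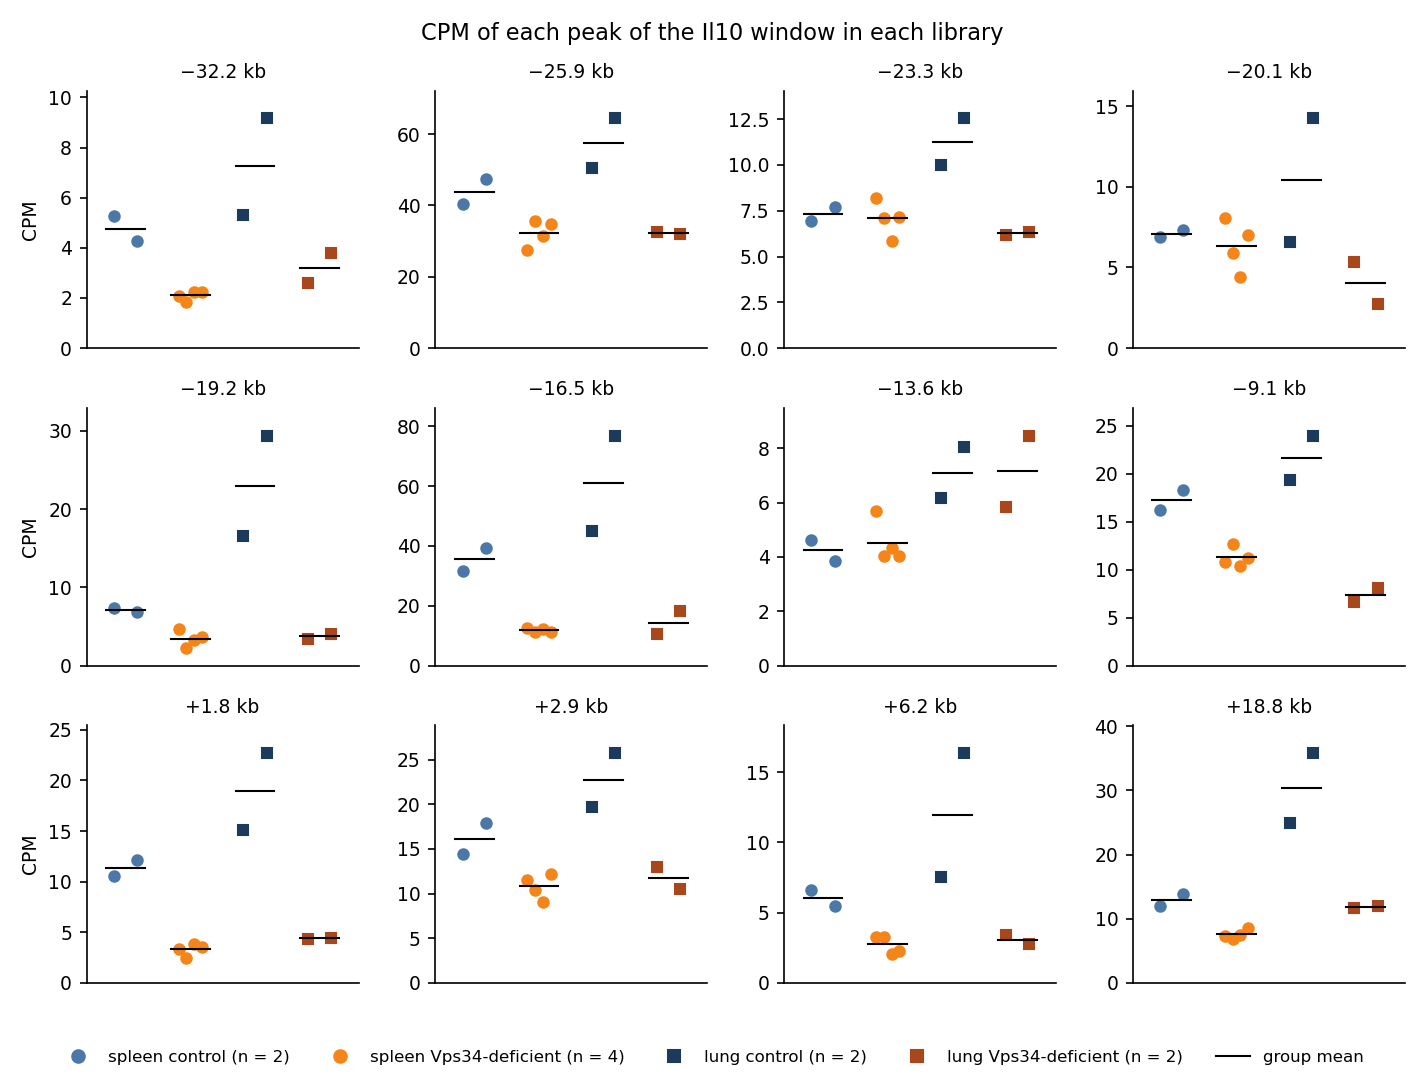
CPM of each of the 12 peaks in each library, with 1 panel per peak and its own axis from 0. Points are libraries and black lines are group means. Vps34-deficient points lie below the control points of the same tissue in all panels except -23.3, -20.1 and -13.6 kb in spleen and -13.6 kb in lung.

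In the lung, 11 of the 12 peaks fell in Vps34-deficient Tregs and none rose, while 3.74% of all peaks tested fell and 1.22% rose. The median log2 fold change was -1.38 for the 12 peaks and 0.02 for all peaks. Both Vps34-deficient libraries were below both control libraries at the same 11 peaks, which held for 22.0% of all peaks. Without lung control 2, 6 peaks were called (-25.9, -19.2, -16.5, -9.1, +1.8 and +18.8 kb), and without lung Vps34-deficient 2, 7 were. In the same libraries the summed promoter signal of the CD8 and NK cell list (peaks at 3 of 5 genes) was 23.6 to 27.6 CPM in lung control and 33.0 to 39.6 CPM in lung Vps34-deficient, and that of the myeloid list (2 of 6 genes) was 17.2 to 18.1 and 10.9 to 12.7 CPM. Among single peaks, both lung Vps34-deficient libraries were above both controls at 23133 of 97385, and below them at 21390. The part of these 2 lists in the Il10 result was not tested. The corresponding spleen ranges overlapped between genotypes, at 28.1 to 32.5 and 26.6 to 37.9 CPM for the CD8 and NK list and 14.7 to 18.3 and 11.8 to 15.2 CPM for the myeloid list.

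The largest fold change in lung was at -19.2 kb. This peak read 16.6 and 29.4 CPM in control and 3.41 and 4.02 CPM in Vps34-deficient libraries, a log2 fold change of -2.67 (SE 0.308, adjusted p = 1.34e-05) or 6.37-fold lower. The -16.5 kb peak read 44.9 and 76.9 CPM in control and 10.6 and 18.2 CPM in Vps34-deficient libraries (log2 fold change -2.13, SE 0.222, adjusted p = 3.73e-06), 4.38-fold lower, with a p that ranked 27 among all peaks tested. The 2 control libraries differed at both peaks by more than the 2 Vps34-deficient libraries did, yet the lower of them stayed well above. Without lung control 2 the log2 fold changes were -2.14 and -1.64, and both peaks were still called.

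Within the gene, the +1.8 kb peak read 15.1 and 22.7 CPM in lung control and 4.39 and 4.45 CPM in lung Vps34-deficient libraries (log2 fold change -2.13, SE 0.262, adjusted p = 2.73e-05). The +2.9 kb peak read 19.7 and 25.8 CPM against 13.0 and 10.5 CPM (-0.98, SE 0.212, adjusted p = 0.00697). Both intronic peaks were thus lower in lung, the first by 4.38-fold and the second by 1.97-fold. Without lung control 2 the log2 fold changes were -1.75 and -0.72, and the +2.9 kb call was lost. Downstream, the +6.2 kb peak read 7.55 and 16.4 CPM in control against 3.41 and 2.75 CPM (-1.99, SE 0.344, adjusted p = 0.000977). The +18.8 kb peak read 24.9 and 35.8 CPM against 11.7 and 12.1 CPM (-1.39, SE 0.204, adjusted p = 0.000198). Lung control 2 was the higher library at both downstream peaks, and without it the +6.2 kb call was lost at a log2 fold change of -1.26.

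The composite-bearing -9.1 kb peak read 19.3 and 24.0 CPM in lung control and 6.66 and 8.04 CPM in lung Vps34-deficient libraries. Its log2 fold change was -1.59 (SE 0.207, adjusted p = 4.77e-05), or 3.02-fold lower. The broadly open -25.9 kb peak read 50.6 and 64.5 CPM against 32.6 and 32.0 CPM (-0.86, SE 0.146, adjusted p = 0.000798), the smallest change among the 11 peaks called. The -9.1 kb call was kept in every alternative setting, and the -25.9 kb call in all but the stricter fold change (an absolute log2 value above 1). The remaining upstream peaks had lower levels and larger p-values. They read 5.32 and 9.17 CPM against 2.60 and 3.81 CPM at -32.2 kb (-1.23, adjusted p = 0.0277) and 9.99 and 12.6 CPM against 6.17 and 6.35 CPM at -23.3 kb (-0.88, adjusted p = 0.0334). At -20.1 kb, whose window holds an NF-kB match, the values were 6.59 and 14.3 CPM against 5.36 and 2.75 CPM (-1.38, adjusted p = 0.0211). These 3 calls were lost without lung control 2, where the -20.1 kb change was -0.65, and also with the replicate number as a block or with the lung libraries fitted alone.

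The -13.6 kb peak (chr1:131006109-131006430) was the exception in both tissues. It read 6.17 and 8.04 CPM in lung control and 5.85 and 8.47 CPM in lung Vps34-deficient libraries (log2 fold change -0.04, SE 0.278, adjusted p = 0.961). In spleen it read 4.63 and 3.86 CPM in control and 5.70, 4.04, 4.33 and 4.02 CPM in Vps34-deficient libraries (adjusted p = 0.927). The groups overlapped in both tissues, and the direction of its small fold changes turned with single libraries left out. As a share of the window sum it went from 2.47% ± 0.533 (SD, n = 2) to 4.38% ± 0.766 (SD, n = 4) in spleen and from 2.54% ± 0.248 (SD, n = 2) to 6.5% ± 1.37 (SD, n = 2) in lung while the sum fell. By the same measure the -16.5 kb peak held 20.4% and 21.2% of the window in spleen and lung control, and 11.5% and 13.0% in Vps34-deficient libraries. The -25.9 kb peak held 25.2% and 20.7% in control, and 31.3% and 29.5% in Vps34-deficient libraries. The shares are descriptions and were not tested.

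**Figure D3:**
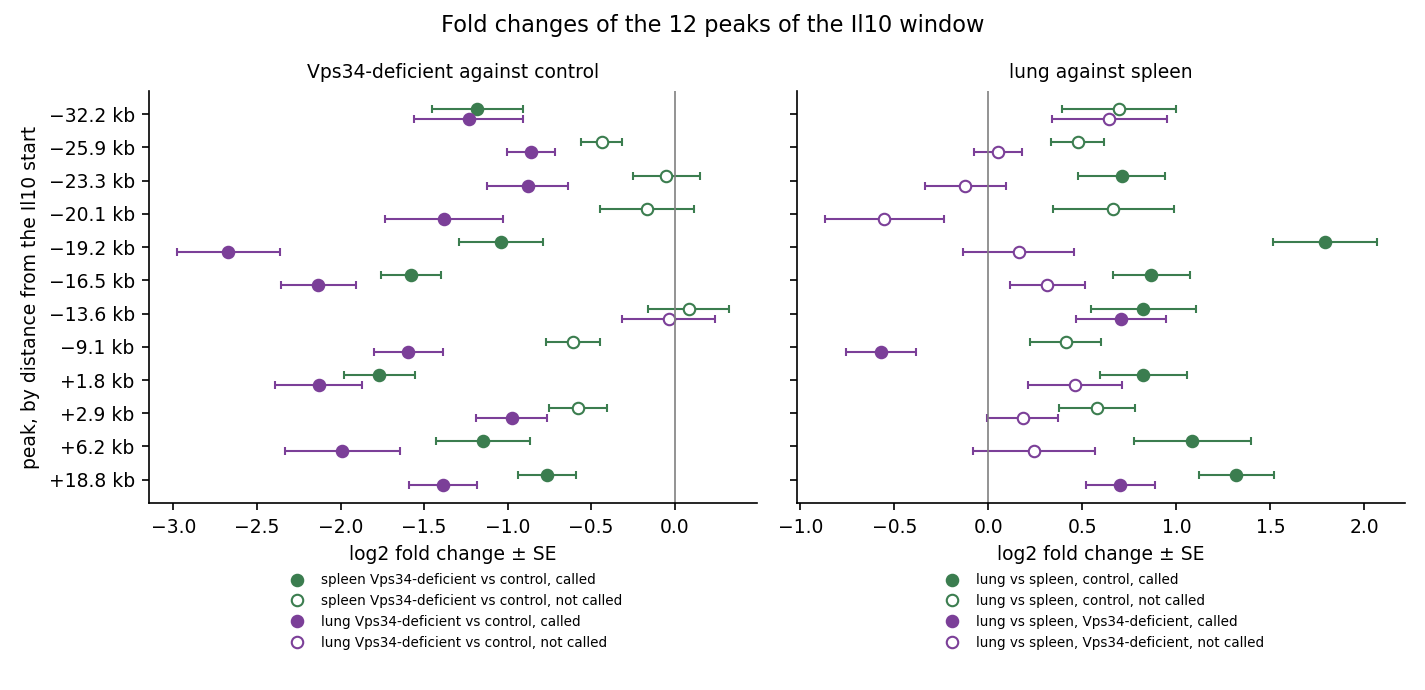
Log2 fold changes with their standard errors (edgeR) for the 12 peaks, ordered by distance from the Il10 start. The left panel sets Vps34-deficient against control Tregs in spleen (green) and lung (purple), and the right panel sets lung against spleen in control (green) and Vps34-deficient Tregs (purple), with filled points for peaks called. In the left panel 6 green and 11 purple points are filled and negative, and in the right panel all 12 green points are above 0.

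With the 2 tissues in an additive model of tissue and genotype, 9 of the 12 peaks were lower in Vps34-deficient Tregs and none was higher, while 4.06% of all peaks tested were lower and 3.52% higher. At the same fold change threshold these 9 peaks were called under all 21 alternative settings of the fit, and with an absolute log2 fold change above 1 there were 7, without -25.9 and +2.9 kb. The lowest value was at +1.8 kb (log2 fold change -1.92, SE 0.169, adjusted p = 4.27e-08), followed by -16.5 kb (-1.81, SE 0.147, adjusted p = 1.33e-08) and -19.2 kb (-1.73, SE 0.254, adjusted p = 6.79e-05). The values at -23.3, -20.1 and -13.6 kb were -0.39, -0.65 and 0.03, with adjusted p of 0.170, 0.102 and 0.938. The genotypes also separated across tissues at the -32.2, -25.9, -19.2, -16.5, -9.1, +1.8, +2.9 and +6.2 kb peaks. They did not at +18.8 kb, where the highest Vps34-deficient library (12.1 CPM) was above the lowest control library (11.9 CPM). At +1.8 and -16.5 kb the highest Vps34-deficient library of either tissue read 4.45 and 18.2 CPM. The lowest control library read 10.6 and 31.7 CPM there. The share of all peaks that separate across tissues was not counted.

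The lung and the spleen were next compared within each genotype. In control Tregs all 12 fold changes were toward higher accessibility in lung, and 7 peaks were called higher, while 11.8% of all peaks tested were. The median log2 fold change of the 12 peaks was 0.77, against 0.04 for all peaks. The -19.2 kb peak differed the most, with 16.6 and 29.4 CPM in lung control against 7.31 and 6.82 CPM in spleen control (log2 fold change 1.79, SE 0.277, adjusted p = 0.000144). At +18.8 kb the lung control libraries (24.9 and 35.8 CPM) were also above the spleen control libraries (11.9 and 13.9 CPM), by 1.32 (SE 0.198, adjusted p = 0.000117). The other 5 peaks called higher in lung were -23.3, -16.5, -13.6, +1.8 and +6.2 kb, with log2 fold changes of 0.71 to 1.09. Of 22 alternative settings, 20 lost the -13.6 kb call and 15 the -23.3 kb call, other scalings of the libraries among them, and 3 to 5 lost the other calls of these 5. Without lung control 2, or without spleen control 1, the calls at -19.2 and +18.8 kb were the only ones left, and at -20.1 kb the direction turned without lung control 2 (from 0.66 to -0.12). Without that library the log2 fold changes also went from 1.09 to 0.30 at +6.2 kb, from 0.87 to 0.32 at -16.5 kb and from 0.82 to 0.40 at +1.8 kb.

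In Vps34-deficient Tregs the -13.6 and +18.8 kb peaks were the 2 of 12 called higher in lung, each with a log2 fold change of 0.70 (adjusted p = 0.0432 and 0.00908), while 12.5% of all peaks tested were higher. The -9.1 kb peak was called lower in lung (-0.57, SE 0.186, adjusted p = 0.0333), where 4.72% of all peaks were. At the same fold change threshold the +18.8 kb call was lost under 1 of 22 alternative settings, and those at -13.6 and -9.1 kb under 11 and 8. None of the 3 passed an absolute log2 fold change above 1. At -19.2 kb, 3.41 and 4.02 CPM in lung overlapped with 4.73, 2.20, 3.29 and 3.59 CPM in spleen. Both tissue comparisons use the libraries of the genotype comparisons, so they are not independent of them.

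The interaction term asked whether the genotype effect itself differed between tissues. All 12 estimates were negative, meaning a more negative genotype fold change in lung, but none was called by edgeR, and 0% of all peaks tested were. At an unadjusted p below 0.05 there were 6 of the 12 peaks and 7060 of all 97109. DESeq2 called none of the 12 and 28 lower and 5 higher of all. The smallest p was at -19.2 kb (difference of log2 fold changes -1.63, SE 0.403, adjusted p = 0.352), followed by -9.1 kb (-0.98, SE 0.265, adjusted p = 0.408). At +1.8 kb the estimate was -0.36 (SE 0.341, adjusted p = 0.870) and changed sign without lung control 2, as it did at -32.2 and -13.6 kb. Without that library the estimates at -16.5 and +6.2 kb went from -0.55 and -0.84 to -0.02 and -0.07. The genotype fold changes at these peaks are therefore not shown to differ between lung and spleen.

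The peaks just outside the window did not pass the test for genotype. The next peak upstream, at -40.2 kb (chr1:130979477-130979817), read 2.59 ± 0.745 CPM in spleen control (SD, n = 2), 2.92 ± 0.393 in spleen Vps34-deficient (SD, n = 4), 3.18 ± 0.890 in lung control (SD, n = 2) and 2.63 ± 0.421 in lung Vps34-deficient libraries (SD, n = 2). Its log2 fold change was 0.16 in spleen (SE 0.303) and -0.31 in lung (SE 0.371). The next downstream, at +29.6 kb and near Mapkapk2, read 3.63 ± 1.10, 2.89 ± 0.497, 4.98 ± 1.33 and 3.95 ± 0.996 CPM in the same groups, with log2 fold changes of -0.31 in spleen (SE 0.289) and -0.39 in lung (SE 0.342). Mapkapk2, a kinase of the p38 pathway and the gene next to Il10 downstream, had 13 peaks within the gene or 10 kb of it, and none was called in either tissue, while the additive model over both tissues called 1 lower. At +33.6 kb, its peak with the lowest fold changes, the values were -0.67 in spleen (adjusted p = 0.152) and -0.88 in lung (adjusted p = 0.0675).

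**Figure D4:**
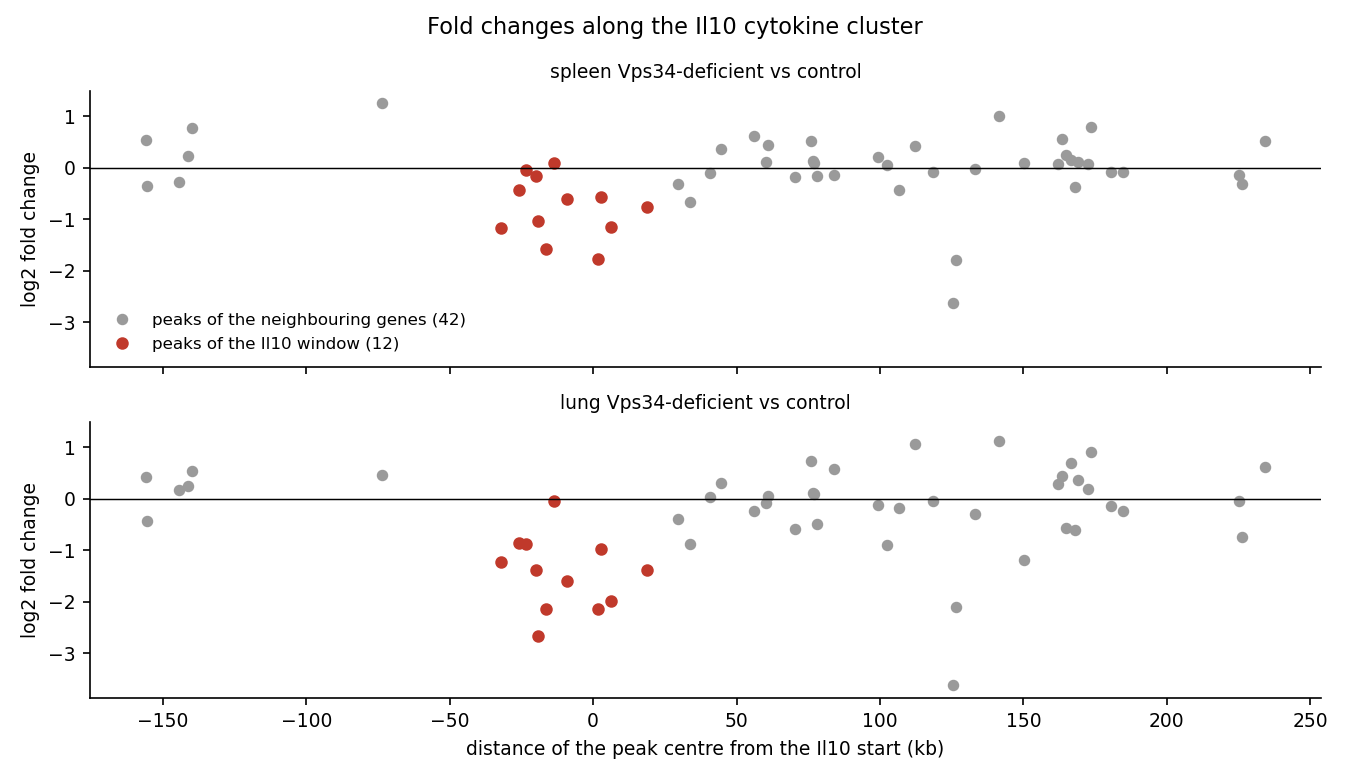
Log2 fold changes (Vps34-deficient against control) in spleen and lung for the 12 peaks of the Il10 window (red) and 42 peaks within 10 kb of 7 neighbouring genes (grey), against distance from the Il10 start in kb. Red points lie mostly below 0, and grey points scatter around 0 except for a pair at 125.4 and 126.6 kb between Dyrk3 and Eif2d.

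Among 8 neighbouring genes of the cluster (Il19, Il20, Il24, Mapkapk2, Fcmr, Dyrk3, Eif2d and Rassf5), 7 had peaks, 42 in all. Of these, 1 fell in spleen and 1 in lung (2.38% each, against 1.02% and 3.74% of all peaks), and none rose by the same test, with 4 lower and 5 higher in spleen and 7 lower and 2 higher in lung at an unadjusted p below 0.05. The median log2 fold change was 0.08 in spleen and -0.0047 in lung. The additive model over both tissues called 3 of the 42 lower (7.14%, against 4.06% of all peaks) and 1 higher (2.38%, against 3.52%). The peak called within each tissue was the same, between Dyrk3 and Eif2d at 125.4 kb from the Il10 start (chr1:131145001-131145430). It read 6.75 ± 2.03 CPM in lung control and 0.561 ± 0.104 CPM in lung Vps34-deficient libraries (SD, n = 2 each), a log2 fold change of -3.62 (SE 0.537, adjusted p = 0.000210). In spleen it read 0.818 ± 0.401 CPM in control (SD, n = 2) and 0.124 ± 0.0242 CPM in Vps34-deficient libraries (SD, n = 4). The log2 fold change there was -2.63 (adjusted p = 0.0181 by the same test). The Vps34-deficient values rest on few counts. Il19, Il24 and Fcmr had 1, 3 and 5 peaks, of which none was called for genotype, and Il20 had none.

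The receptor and signalling genes of IL-10 were examined in the same way. Il10ra, Il10rb, Jak1, Tyk2, Stat3, Socs3 and Bcl3 had 72 peaks together. None was called in spleen by the same edgeR test, with 2 lower and 9 higher at an unadjusted p below 0.05 (15.3% of them, against 14.3% of all peaks). In lung 3 fell (2 at Il10ra, 1 at Stat3) and 1 rose, which Stat3 shares with Stat5a. The lower and higher calls in lung are 4.17% and 1.39% of these peaks, against 3.74% and 1.22% of all. At an unadjusted p below 0.05 there were 13 lower and 6 higher (26.4%, against 20.3% of all peaks), with a median log2 fold change of -0.17 against 0.02 for all peaks. The additive model over both tissues called 1 of the 72 lower and 3 higher (1.39% and 4.17%, against 4.06% and 3.52% of all peaks). The regulators of Il10 that were listed, 18 transcription factors with 213 peaks, had 4 lower and no higher peaks in spleen, and 15 lower and 3 higher peaks in lung. The lower calls are 1.88% and 7.04% of these peaks, against the 1.02% and 3.74% of all peaks, and the higher calls in lung are 1.41%, against 1.22%. At an unadjusted p below 0.05, 11 were lower and 14 higher in spleen (11.7%, against 14.3% of all peaks). In lung 43 were lower and 20 higher (29.6%, against 20.3%). The median log2 fold change of the regulator peaks was 0.03 in spleen and -0.12 in lung, against 0.05 and 0.02 for all peaks. At Tbx21, which encodes T-bet, the factor of type 1 effector T cells, a peak 11.2 kb past the start (chr11:97103728-97104479) read 3.31 ± 0.774 CPM in spleen control (SD, n = 2), 0.534 ± 0.305 in spleen Vps34-deficient (SD, n = 4), 6.40 ± 0.930 in lung control (SD, n = 2) and 0.293 ± 0.184 CPM in lung Vps34-deficient libraries (SD, n = 2). Its log2 fold change was -2.59 (SE 0.398, adjusted p = 0.000619) in spleen and -4.51 (SE 0.585, adjusted p = 4.83e-05) in lung, and the Vps34-deficient values rest on few counts. The other lower peaks in spleen were 3 of 33 at Nfatc1, an NFAT factor. In lung, lower peaks were found at Ikzf3 (6 of 23), Nfatc1 (4 of 33), Prdm1 (2 of 10), Nfil3, Bhlhe40 and Tbx21 (1 each), and the higher ones at Nfatc2, Ikzf1 and Stat5a (1 each). Maf, Irf4, Batf, Junb, Jun, Fosl2, Ahr, Gata3 and Stat5b had no peak called for genotype within either tissue. The additive model over both tissues called 14 of the 213 regulator peaks lower (6.57%, against 4.06% of all peaks). It called 4 higher (1.88%, against 3.52%). Among these calls were 1 peak of Maf lower and 1 of Stat5b higher.

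Between the tissues, 8.92% of the regulator peaks were called higher in lung in control and 5.63% in Vps34-deficient Tregs, below the 11.8% and 12.5% of all peaks. Fosl2 and Bhlhe40, which encode an AP-1 subunit and a bHLH repressor, were among the genes with such peaks. The Fosl2 promoter peak (0.3 kb upstream of its start) was higher in lung control than in spleen control, with a log2 fold change of 0.99 (SE 0.142, adjusted p = 8.91e-05), and 4 of its 5 peaks were higher in lung in each genotype. A Bhlhe40 peak 5.1 kb past the start was higher in lung by 1.68 in control (SE 0.223) and by 1.60 in Vps34-deficient Tregs (SE 0.179), while 1 of the 7 Bhlhe40 peaks was called lower in lung in Vps34-deficient Tregs.

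The 4 peaks in or within 10 kb of Il10 (-9.1, +1.8, +2.9 and +6.2 kb) summed to 50.8 ± 4.22 CPM in spleen control (SD, n = 2), 28.1 ± 1.86 in spleen Vps34-deficient (SD, n = 4), 75.2 ± 19.2 in lung control (SD, n = 2) and 26.6 ± 1.22 CPM in lung Vps34-deficient libraries (SD, n = 2). The genes with the most similar pattern were found by summing peaks in the same way and taking the root mean square difference of centred log2 sums over the 10 libraries. Of 11485 genes compared, the closest was Klrg1, an inhibitory receptor of terminally differentiated Tregs, with a difference of 0.130, where the median gene had 0.613. It read 88.8 ± 4.02 CPM in spleen control (SD, n = 2), 53.5 ± 1.37 in spleen Vps34-deficient (SD, n = 4), 127 ± 29.8 in lung control (SD, n = 2) and 56.4 ± 0.753 CPM in lung Vps34-deficient libraries (SD, n = 2). Asphd2 (0.169), Plekhg3 (0.170), Fam183b (0.172) and Acsbg1 (0.187) followed. All share the 10 libraries and their depth with Il10, so this likeness is a description of these libraries.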

How the data were processed

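ATAC-seq libraries were made from 10 samples of sorted Tregs. Per the study's methods, the authors trimmed paired-end reads, aligned them with BWA, removed duplicates, shifted read ends for the Tn5 cut and kept nucleosome-free fragments. MACS2 (2.1.0.20150603 per the processing notes) called peaks in each sample, and peaks shared by enough replicates (50%) were merged. The deposited values are raw counts, whole numbers that bedtools gave for each peak and library. The methods name an older mouse assembly and the processing notes name GRCm38, which was used: 51.2% of 21951 protein-coding starts lay in a peak there, against 1.98% and 2.11% after shifts of 1 Mb. Between 91.5% and 96.5% of the counts of a library were even, as when both mates of a fragment are counted, so counts overstate the independent fragments.

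CPM is a count scaled to the library total. Counts of all peaks were filtered with filterByExpr, which left 97109 peaks and all 12 members, scaled with TMM factors and fitted in edgeR 4.0.16 (R 4.3.3) by a quasi-likelihood model of 4 groups over the 10 libraries, so that groups of 2 share an estimate of the spread (coefficient of variation 17.8%). An additive model of tissue and genotype gave the effect over both tissues. The thresholds (adjusted p 0.05, log2 fold change 0.5) are the study's, and SEs were derived from the F statistic. The fit was tested on simulated data with known changes. Every peak of the window is described. Listed genes were counted with peaks in the gene or within 10 kb, naming at most 3 peaks with the smallest p per comparison. Cell type markers were read from peaks within 1 kb of a start, and motifs were matched exactly in the central 300 bases of each peak. Gene patterns were compared over genes with at least 3 peaks after adding 0.5 CPM. The members and lists were chosen with earlier results of these data known. Alternatives varied the scaling, filter, threshold, halved counts, loess offsets, a replicate block, a covariate for chromosome Y signal (high in 5 libraries and low in 5, both in every group), the libraries fitted and the tool (DESeq2 1.42.0). No replicate pair agreed within counting noise. The other experiments of the study were not used here.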

Additional observations from a re-analysis of the deposited data

How the results depend on the processing

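At the same fold change threshold, the 9 lower peaks of the model over both tissues kept their calls under 21 alternatives, and 7 passed an absolute log2 fold change above 1; the interaction had no call under any setting. In spleen, 6 peaks were called lower, 7 with DESeq2, 2 with the replicate number as a block and 2 with the block and GC offsets, and 2 to 8 with single libraries left out; the lowest came without either spleen control library. In lung, 11 were called lower, 8 at the stricter fold change, 8 with the block, 8 with the block and GC offsets, 8 with the compared groups only, and 6 to 11 with single libraries left out. For lung against spleen in control Tregs, 7 peaks were called higher, against 3 at an absolute log2 fold change above 1, 4 with the block and GC offsets, 4 with the compared groups only, 4 with DESeq2, and 2 to 7 with single libraries left out. In Vps34-deficient Tregs, the 1 peak called lower in lung became 0 at the stricter fold change, with abundance offsets, with the block, and with the block and GC offsets, and 0 to 1 with libraries left out. The 2 peaks called higher became 0 at the stricter fold change and with the block and GC offsets, 1 with library size scaling, without the filter, with GC offsets, with the block or with DESeq2, and 1 to 3 with libraries left out. The cause of these shifts was not tested. The replicate numbers do not pair the libraries by the labels, and deviations of same-numbered libraries from their group means correlated at -0.115 to 0.0786 over 12 pairs.

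Directions turned at the following peaks, none of which was called there. The -23.3 kb peak in spleen became 0.0793 with the block and 0.0594 with the block and GC offsets. The -13.6 kb peak in lung became 0.016 with a mean count of at least 20 and 0.000532 with DESeq2. In lung against spleen of Vps34-deficient Tregs, -25.9 kb became -0.00166 without the filter, and +6.2 kb became -0.0302 with the block and -0.00340 with the block and GC offsets. The interaction at -32.2 kb became 0.021 with a mean count of at least 20, 0.074 with the block and 0.11 with the block and GC offsets. With single libraries left out, log2 fold changes crossed 0 at -13.6 kb in spleen (-0.0821 to 0.17), lung (-0.23 to 0.29), both tissues (-0.0641 to 0.13) and the interaction (-0.28 to 0.25). They also did for lung against spleen at -20.1 kb in control (-0.12 to 1.01) and at -25.9 (-0.0693 to 0.13), -19.2 (-0.0542 to 0.34) and -16.5 kb (-0.0538 to 0.73) in Vps34-deficient Tregs, and for the interaction at -32.2 (-0.24 to 0.50) and +1.8 kb (-0.48 to 0.0522).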
